A study of Mus musculus with 25 samples.

Results

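SCNT-Kdm4d embryos were compared directly with SCNT-Kdm3a embryos, using the 4 of 25 libraries that hold SCNT embryos injected with Kdm4d mRNA (2 libraries) or Kdm3a mRNA (2 libraries). The members were chosen by the group in the sample labels. Somatic cell nuclear transfer (SCNT) replaces the chromosomes of an oocyte with the nucleus of a body cell. Each library came from its own pool of 5 to 10 embryos at the two-cell stage, collected 28 to 29 h after the start of development and sequenced from poly(A) RNA. In both groups BDF1 cumulus nuclei were placed into enucleated BDF1 oocytes, which were activated with 3 mM strontium chloride in medium with 5 µg/mL cytochalasin B, and 10 pL of mRNA at 1500 ng/µL was injected 5 to 6 h after activation. All of these embryos were female. SCNT control embryos (2 libraries) were made in the same way without mRNA, and IVF embryos (4 libraries) came from C57BL/6N oocytes and DBA/2 sperm, the parental strains of BDF1. The remaining libraries hold SCNT embryos made with latrunculin A and treated with the histone deacetylase inhibitor TSA (25 nM for 8 h), with 1 µM of an inhibitor of the H3K9 methyltransferase G9a for 24 h (RK-701 or A366), with TSA and an inhibitor together (RK-701, A366 or UNC0638), or with neither (CC_cont). Whether an embryo pool held fewer nuclei or less RNA per nucleus cannot be told apart in such data, and p-values measure the spread between pools.

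Methyl groups on lysine 9 of histone H3 (H3K9) mark silent chromatin, and their persistence in the donor nucleus is a known barrier to the start of zygotic transcription after SCNT. KDM3A removes mono- and dimethylation of H3K9, and KDM4D removes di- and trimethylation, both as JmjC-domain enzymes that use iron and 2-oxoglutarate. Mouse embryos begin most of their transcription at the two-cell stage with a transient wave that includes Zscan4, Tcstv and Obox genes and the endogenous retrovirus MERVL, whose LTR (MT2_Mm) serves as a promoter for neighbouring genes. Comparing both mRNAs with each other asks which transcripts differ with the enzyme that was given.

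The 4 libraries held 13240378 to 21188688 reads on genes, within the range of all 25 libraries (6662727 to 21188688). SCNT-Kdm3a replicate 1 was the deepest of the series. Pearson's r of log2(CPM + 1) was 0.978 between both SCNT-Kdm3a libraries, 0.984 between both SCNT-Kdm4d libraries and 0.973 to 0.979 across the groups, so that SCNT-Kdm3a replicate 2 resembled SCNT-Kdm4d replicate 2 (0.979) as closely as it did its own replicate. Reads on transposable elements made up 12.3% and 10.6% of counted reads in SCNT-Kdm3a against 9.95% and 9.74% in SCNT-Kdm4d, and mitochondrial genes took 7.35% and 5.78% against 5.09% and 4.41% of gene reads. SCNT-Kdm3a replicate 1 was the highest of the 4 in both. Markers of the cumulus donor cells had a summed level of 334 and 361 CPM in SCNT-Kdm3a and 309 and 361 CPM in SCNT-Kdm4d for 33 genes tested, with Lum at 0 reads and Ptx3, Fshr and Col1a2 below 0.3 CPM in all 4 libraries, whereas Amhr2 stood at 34.7 to 39.0 CPM in them and at 27.2 to 32.9 CPM in IVF. Of the 33, 7 were higher in SCNT-Kdm4d and 2 in SCNT-Kdm3a at an unadjusted p under 0.05 (5.48% and 4.55% of all genes tested), and Tnfaip6 measured 2.99 and 1.88 CPM in SCNT-Kdm3a and 4.68 and 7.64 CPM in SCNT-Kdm4d. Their part in the results was not tested.

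Both injected genes separated the groups. Levels are given as CPM, reads scaled to library sizes that were normalized over all genes, which compares a gene between libraries but not with other genes. Kdm3a (mm10, chr6:71588972-71632990) stood at 3465 and 3116 CPM in SCNT-Kdm3a and at 259 and 266 CPM in SCNT-Kdm4d, against 205 and 201 CPM in SCNT control. Kdm4d (chr9:14462548-14500482) stood at 18542 and 12539.8 CPM in SCNT-Kdm4d and at 5.08 and 2.74 CPM in SCNT-Kdm3a, against 2.52 and 0.718 CPM in SCNT control. The groups did not overlap for either gene. Kdm4d mRNA thus took 1.69% and 1.13% of the gene reads of its libraries, and Kdm3a mRNA 0.312% and 0.275% of those of its own. The log2 fold changes of SCNT-Kdm4d against SCNT-Kdm3a were −3.65 ± 0.244 (SE; edgeR adjusted p = 2.3e-10) for Kdm3a and 11.91 ± 0.551 (adjusted p = 5.11e-14) for Kdm4d. The reads were counted on gene models, so they do not separate injected from endogenous transcripts. None of the other 9 H3K9 demethylase genes tested passed the test, and neither did any of 29 genes for H3K9 methyltransferases and heterochromatin proteins.

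Of 25794 autosomal genes tested with edgeR, 84 (0.326%) differed with an adjusted p under 0.05 and a change of more than 2-fold. Of these differentially expressed genes (DEGs), 37 (0.143%) were higher in SCNT-Kdm4d and 47 (0.182%) were higher in SCNT-Kdm3a, the injected gene included in each. The groups did not overlap for any of the 84, as for 36.6% of all genes tested. At an unadjusted p under 0.05, 1413 genes (5.48%) were higher in SCNT-Kdm4d and 1173 (4.55%) in SCNT-Kdm3a. Over all genes the mean levels of both groups correlated at r = 0.985 on the log2 scale, a value across genes, which are not independent. The number of DEGs depended on single libraries: it was 9 without SCNT-Kdm3a replicate 1, 124 without SCNT-Kdm3a replicate 2, 4 without SCNT-Kdm4d replicate 1 and 14 without SCNT-Kdm4d replicate 2. The direction of the other 82 DEGs stayed the same in all of these fits. Since the groups overlapped for none of them, leaving out 1 library could hardly reverse a direction. DESeq2 called 325 genes, with all 84 among them.

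**Figure D1:**
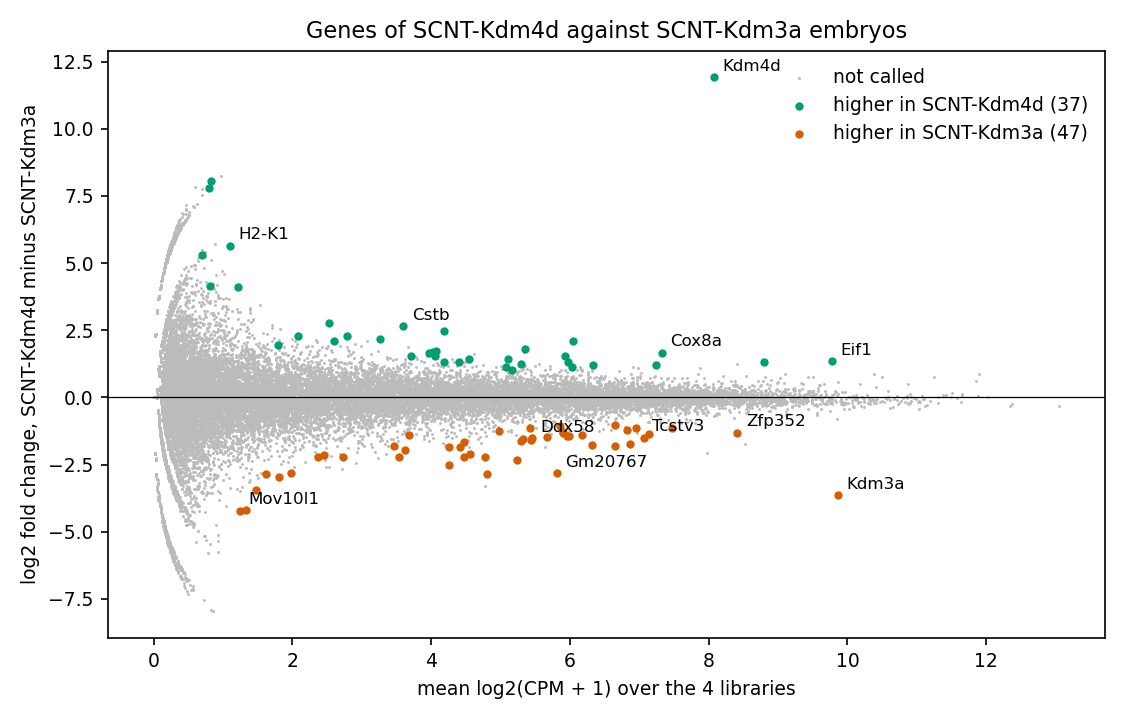
Each point is one of 25794 genes, with its mean log2(CPM + 1) over the 4 libraries on the x axis and its log2 fold change of SCNT-Kdm4d against SCNT-Kdm3a on the y axis. The 37 genes higher in SCNT-Kdm4d lie above 0 and the 47 higher in SCNT-Kdm3a below it, with the injected Kdm4d (11.91) and Kdm3a (−3.65) far from the rest at their levels.

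Genes that were higher in SCNT-Kdm3a included genes of the two-cell stage, several of them neighbours. On chromosome 13, between 120140246 and 120318178 (mm10), 9 genes were tested. Of these, 6 were DEGs, all higher in SCNT-Kdm3a (0.182% of all genes tested). The span runs from the first to the last of a row of DEGs less than 1000000 bases apart. Its counts thus rest on the genes that drew it and are a description. Tcstv3, one of the two-cell-specific Tcstv genes, measured 264 and 192 CPM in SCNT-Kdm3a, 61.9 and 99.3 CPM in SCNT-Kdm4d, 101 and 74.0 CPM in SCNT control and 95.6 ± 17.1 CPM (SD, n = 4) in IVF. Both SCNT-Kdm3a libraries thus exceeded every IVF, control and SCNT-Kdm4d library, and the log2 fold change was −1.5 ± 0.299 (adjusted p = 0.0198). Gm20767 measured 188 and 108 CPM in SCNT-Kdm3a and 21.9 and 19.8 CPM in SCNT-Kdm4d (7.1-fold, adjusted p = 0.00336). Gm21818 measured 246 and 181 against 57.0 and 71.2 CPM (3.33-fold), and BC147527 measured 165 and 133 against 31.1 and 56.1 CPM (3.41-fold). For these 3 genes, as for Tcstv3, the lower SCNT-Kdm3a library lay above both SCNT-Kdm4d libraries. Gm21762 and Gm21731 were 3.03-fold and 2.20-fold higher in SCNT-Kdm3a. Over the 9 genes the median log2 fold change was −1.5, and 8 were below 0 (48.5% of all genes tested). Several of these genes are near copies of each other, and only uniquely aligned reads were counted, so that the split between them is uncertain.

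A similar group of gene models that resemble the translation factor gene Eif1a lies on chromosome 12 between 87772425 and 88324026. This span too was drawn from its 2 DEGs. Of 42 genes tested there, 2 were DEGs (0.326% of all genes tested) and 15 had an unadjusted p under 0.05 (10.0%). The median log2 fold change was −1.11, and 34 were below 0 (48.5% of all genes tested). The same rule gave a span on chromosome 12 with the DEGs Ckb and Aspg. Of 16 genes tested in it, 8 were below 0 and 7 above, with a median of −0.05. Gm5039 measured 81.4 and 37.5 CPM in SCNT-Kdm3a and 10.5 and 14.8 CPM in SCNT-Kdm4d (adjusted p = 0.00713). Gm21319 measured 39.4 and 28.7 CPM in SCNT-Kdm3a and 10.7 and 8.41 CPM in SCNT-Kdm4d (adjusted p = 0.0391). SCNT-Kdm4d libraries lay below all IVF libraries for both genes, where Gm5039 measured 46.9 ± 10.7 CPM and Gm21319 25.8 ± 10.5 CPM (SD, n = 4). The autosomal Eif1a itself showed no such split, with 210.5 and 259 CPM in SCNT-Kdm3a and 201 and 275 CPM in SCNT-Kdm4d.

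Zfp352, a zinc finger gene of the two-cell stage (chr4:90218820-90225702), measured 612 and 466 CPM in SCNT-Kdm3a and 199 and 237 CPM in SCNT-Kdm4d. SCNT control (394 and 500.1 CPM) lay nearer to SCNT-Kdm3a than to SCNT-Kdm4d, and IVF measured 303 ± 32.2 CPM (SD, n = 4). The log2 fold change was −1.31 ± 0.253 (adjusted p = 0.0172). Among the 38 two-cell marker genes tested, Zfp352 and Tcstv3 were the DEGs. At an unadjusted p under 0.05, 16 were higher in SCNT-Kdm3a (4.55% of all genes tested) and none in SCNT-Kdm4d (5.48%). The median log2 fold change was −0.42, against 0 over all genes. The summed level of the list was 9025 and 9424 CPM in SCNT-Kdm3a, 5856 and 6655 CPM in SCNT-Kdm4d, 3153 and 4536 CPM in SCNT control, and 4377 to 5720 CPM in IVF. Both injected groups were thus above every control and IVF library in this sum.

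The Zscan4 genes, which act in telomere maintenance and mark the start of zygotic transcription, did not pass the test. Zscan4d measured 138 and 122 CPM in SCNT-Kdm3a and 67.2 and 63.5 CPM in SCNT-Kdm4d, against 7.17 and 9.17 CPM in SCNT control and 178 ± 19.4 CPM (SD, n = 4) in IVF. Its groups did not overlap, but the adjusted p was 0.417. Zscan4a, annotated as a pseudogene, measured 71.3 and 39.8 against 42.8 and 55.8 CPM, and Zscan4f 13.6 and 14.4 against 14.0 and 11.4 CPM, so that both groups overlapped there. Among the 7 Obox genes, homeobox genes of early embryos, none was called. Obox3 measured 387 and 298 CPM in SCNT-Kdm3a and 230.3 and 230.1 CPM in SCNT-Kdm4d, and Obox6 measured 1422 and 1312 CPM against 1148 and 1332 CPM.

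**Figure D2:**
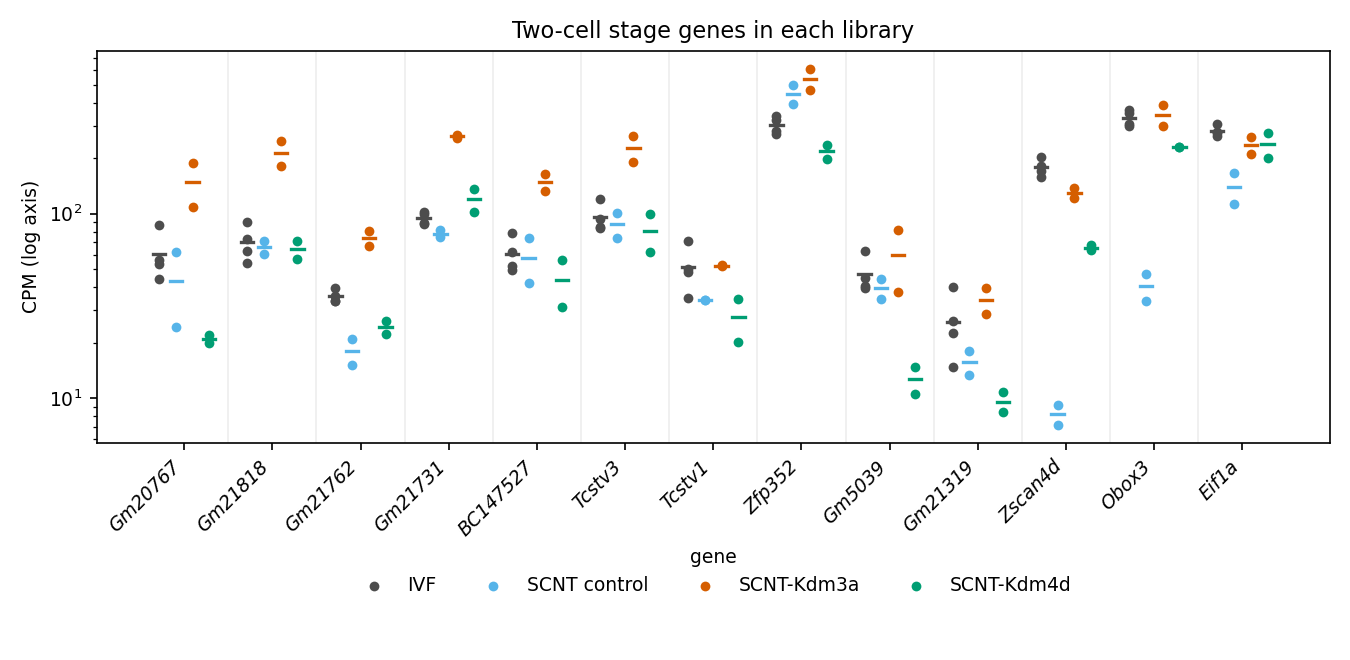
Dots give the CPM of 13 genes (x axis) in each library on a log axis, coloured by group, and lines give the group means. Tcstv3 lay at 192 and 264 CPM in SCNT-Kdm3a and at 61.9 and 99.3 CPM in SCNT-Kdm4d, whereas the Eif1a values of both groups overlap.

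Promoters of 3 of these genes are shown because they belong to the groups that were higher in SCNT-Kdm3a, and those of Mpc2 and Cox5b because they were higher in SCNT-Kdm4d. Each runs from 250 bases before to 50 bases after the RefSeq start on GRCm38.p6, 5′ to 3′ along the gene, and the capitals mark CpG dinucleotides.
BC147527, chr13:120300142-120300441, plus strand: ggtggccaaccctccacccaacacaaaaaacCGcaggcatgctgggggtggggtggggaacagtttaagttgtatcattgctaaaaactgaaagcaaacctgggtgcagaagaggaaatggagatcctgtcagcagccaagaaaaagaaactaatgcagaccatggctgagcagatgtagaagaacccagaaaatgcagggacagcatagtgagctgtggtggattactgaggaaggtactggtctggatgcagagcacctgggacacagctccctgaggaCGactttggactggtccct
Gm21319, chr12:87775706-87776005, minus strand: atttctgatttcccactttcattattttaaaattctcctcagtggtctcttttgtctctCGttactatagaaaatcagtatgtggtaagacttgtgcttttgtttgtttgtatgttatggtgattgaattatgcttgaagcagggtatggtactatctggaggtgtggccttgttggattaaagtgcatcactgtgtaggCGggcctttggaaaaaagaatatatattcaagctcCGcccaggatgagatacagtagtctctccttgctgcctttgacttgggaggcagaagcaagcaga
Zfp352, chr4:90218570-90218869, plus strand: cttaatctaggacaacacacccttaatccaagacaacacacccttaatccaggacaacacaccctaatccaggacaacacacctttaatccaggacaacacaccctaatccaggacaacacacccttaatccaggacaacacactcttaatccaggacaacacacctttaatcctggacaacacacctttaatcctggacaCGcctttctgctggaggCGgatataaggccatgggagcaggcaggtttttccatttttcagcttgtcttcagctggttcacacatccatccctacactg
Mpc2, chr1:165461010-165461309, plus strand: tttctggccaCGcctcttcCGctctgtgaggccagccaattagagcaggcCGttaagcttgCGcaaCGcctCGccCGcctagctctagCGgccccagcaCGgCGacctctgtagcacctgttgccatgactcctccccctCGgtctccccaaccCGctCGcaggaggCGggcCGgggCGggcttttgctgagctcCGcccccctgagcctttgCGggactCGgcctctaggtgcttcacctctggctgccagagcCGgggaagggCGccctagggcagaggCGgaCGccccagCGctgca
Cox5b, chr1:36691237-36691536, plus strand: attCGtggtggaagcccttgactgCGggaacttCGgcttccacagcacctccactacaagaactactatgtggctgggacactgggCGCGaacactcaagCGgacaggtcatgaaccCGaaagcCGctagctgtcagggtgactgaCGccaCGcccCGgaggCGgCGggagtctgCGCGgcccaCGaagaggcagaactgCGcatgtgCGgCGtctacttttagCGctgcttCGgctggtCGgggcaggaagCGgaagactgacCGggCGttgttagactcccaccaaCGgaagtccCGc
The first 3 held 2, 3 and 2 CpG in 300 bases, and the promoters of Mpc2 and Cox5b held 24 and 27, against a median of 17 over the promoters of the genes tested. Other DEGs lay the other way, with 20, 25, 25 and 32 CpG for Mov10l1, P2ry1, Mto1 and Adcy2, which were higher in SCNT-Kdm3a, and 3, 1 and 4 for Aspg, Pgam2 and Sfn, which were higher in SCNT-Kdm4d. A general comparison of CpG content was void, because 20 of the 46 genes higher in SCNT-Kdm3a had a RefSeq promoter in the table used. Of the 36 genes higher in SCNT-Kdm4d, 32 had one, with a median of 18 CpG. The TATA box letters TATAAA, searched on both strands, were in a promoter of 6 of these 32 genes (18.8%). Of all genes tested that had a promoter in the table, 11.4% held them. GGGCGG, searched likewise, was in a promoter of 17 of the 32 genes (53.1%), against 56.2% of the genes tested. A gene with several promoters was counted if any of them held the letters. Counted by single promoter, an unlike measure, TATAAA was in 13.6% and GGGCGG in 35.7% of all promoters in the table. A match of letters is not evidence of a bound site.

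ERVL elements are the class of retrovirus-like elements that holds MERVL, and MaLR elements are related to them. Of the 46 genes higher in SCNT-Kdm3a, 12 (26.1%) had a start within 1 kb of an ERVL or MaLR copy, against 1 of 36 genes higher in SCNT-Kdm4d and 6.93% of all genes tested. For copies of MERVL-int or its LTR MT2_Mm this held for 6 of the 46 (13.0%), namely Prr18, Gm48578, Gm20767, Gm16243, Gm48399 and Ctf2, for none of the 36, and for 0.395% of all genes tested. Taking all 102 tested genes with a start within 1 kb of MERVL, whatever their change, 25 (24.5%) were higher in SCNT-Kdm3a at an unadjusted p under 0.05, against 4.55% of all genes, and 1 was higher in SCNT-Kdm4d. Their median log2 fold change was −0.59, and it was −0.34 without SCNT-Kdm3a replicate 1. Against SCNT control the median of these 102 genes was 0.53 in SCNT-Kdm3a and −0.12 in SCNT-Kdm4d, 2 comparisons that share the control libraries. Genes near other ERVL or MaLR copies had a median of 0 between the injected groups, those near ERVK copies one of −0.01 and those near L1 copies one of −0.06. Gm48578, a lincRNA on chromosome 12 with a MERVL-int copy near its start, measured 96.7 and 49.8 CPM in SCNT-Kdm3a, 10.1 and 10.3 CPM in SCNT-Kdm4d and 33.2 and 26.6 CPM in SCNT control. It had the lowest adjusted p apart from the injected genes (0.000319), and it was the one DEG apart from these that passed the test under every alternative tried. Prr18, a proline-rich protein gene, measured 6.44 and 5.47 against 0.807 and 0.701 CPM.

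Further genes higher in SCNT-Kdm3a belonged to different groups. Mov10l1, an RNA helicase of piRNA production, measured 1.57 and 7.27 CPM in SCNT-Kdm3a and 0.0807 and 0.351 CPM in SCNT-Kdm4d, far below the 34.1 ± 5.84 CPM (SD, n = 4) of IVF in both. It was the single DEG among 73 germline and meiosis genes tested. Ankef1, which encodes an ankyrin repeat protein, measured 7.49 and 2.05 against 0.0807 and 0.421 CPM. Ddx58 encodes the RNA sensor RIG-I and was the single DEG of 26 RNA sensing and interferon genes tested. It measured 78.4 and 68.7 CPM in SCNT-Kdm3a, 18.6 and 32.7 CPM in SCNT-Kdm4d, 103 and 59.6 CPM in SCNT control and 10.4 ± 2.92 CPM in IVF, so that SCNT-Kdm3a lay within the range of the control. The tRNA modification gene Mto1 measured 99.6 and 85.8 CPM in SCNT-Kdm3a, 39.4 and 35.5 CPM in SCNT-Kdm4d, 58.2 and 54.4 CPM in SCNT control and 15.3 ± 2.71 CPM in IVF. For both genes every SCNT control, SCNT-Kdm3a and SCNT-Kdm4d library was above every IVF library, and SCNT-Kdm4d was the lowest of these 3 groups. Zfp40, a zinc finger gene, measured 17.4 and 28.7 against 3.39 and 6.45 CPM. Among receptors and signalling proteins, the netrin receptor Dcc was 2.61-fold higher in SCNT-Kdm3a (adjusted p = 0.0391), the collagen receptor Ddr2 2.20-fold (adjusted p = 0.0194), and the purinergic receptor P2ry1 fell by 1.66 on the log2 scale in SCNT-Kdm4d (adjusted p = 0.00484). P2ry1 measured 42.7 and 32.7 CPM in SCNT-Kdm3a and 12.0 and 11.9 CPM in SCNT-Kdm4d, with 39.8 and 34.4 CPM in SCNT control. The brain-type fatty acid binding protein Fabp7 (48.6 and 29.7 against 8.63 and 12.9 CPM) and the adenylate cyclase Adcy2 (53.5 and 40.4 against 21.1 and 18.4 CPM) were also higher in SCNT-Kdm3a. The cell cycle regulator family gene Spdye4b (83.3 and 83.5 against 31.5 and 28.3 CPM) and Gm281 (65.7 and 67.6 against 23.2 and 22.6 CPM) had replicates that lay close together in both groups. The regulator of G protein signalling Rgs18 and the gene models Gm12106, Gm5989 and Gm9042 fell by 2.85, 3.47, 2.53 and 2.22 on the log2 scale in SCNT-Kdm4d. Of the 46 genes, 30 (65.2%) were protein coding, against 62.9% of all genes tested. Reads were counted without strand, and pairs that overlapped several features were not counted. For the antisense models Gm16577 and Gm16243 the strand of the counted reads is thus unknown. The study's list of genes that fail to be expressed after SCNT (reprogramming-resistant genes, RRGs), which was chosen on an earlier data set and on SCNT and IVF libraries of this study, held 16 of the 46 DEGs and none of the 36 in the other direction. These 16 were 1.82% of the RRGs tested, against 0.182% of all genes tested. Over the 879 RRGs, 118 were higher in SCNT-Kdm3a (4.55% of all genes tested) and 67 in SCNT-Kdm4d (5.48%) at an unadjusted p under 0.05. Both counts were above these shares, and the median log2 fold change was −0.06.

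Of the genes higher in SCNT-Kdm4d, 35 of 36 (97.2%) were protein coding, against 62.9% of all genes tested. Several of their products serve mitochondria. Cox5b and Cox8a encode subunits of cytochrome c oxidase. Cox8a measured 76.0 and 103 CPM in SCNT-Kdm3a, 298 and 271 CPM in SCNT-Kdm4d, 167 and 182 CPM in SCNT control and 156 to 368 CPM in IVF (adjusted p = 0.00977). Cox5b measured 13.7 and 30.8 CPM in SCNT-Kdm3a, 73.9 and 79.9 CPM in SCNT-Kdm4d and 50.1 and 49.0 CPM in SCNT control (adjusted p = 0.0153). For both genes SCNT control lay between the injected groups. The mitochondrial pyruvate carrier subunit Mpc2 measured 24.5 and 39.2 CPM in SCNT-Kdm3a and 121 and 151 CPM in SCNT-Kdm4d (4.28-fold, adjusted p = 0.0211). The mitochondrial ribosome genes Mrpl34 and Mrpl57 were higher by 1.12 and 1.70 on the log2 scale, and the iron-sulfur assembly gene Isca1 by 1.55. Respiratory chain, mitochondrial ribosome and proteasome genes were listed after these values had been seen. Of 90 respiratory chain genes, 16 were higher in SCNT-Kdm4d at an unadjusted p under 0.05 and 2 were lower, and of 77 mitochondrial ribosome genes 21 were higher and none lower, against 5.48% higher and 4.55% lower of all genes. The medians were 0.17 and 0.22. Of 38 proteasome genes 5 were higher and none lower, among them the immunoproteasome subunit Psmb10 (8.64 and 9.66 against 24.4 and 28.7 CPM). Transcripts encoded by the mitochondrial genome took a larger share of reads in SCNT-Kdm3a, as given above. The respiratory chain and mitochondrial ribosome genes were also short, with a median length of 1233 and 1560 bases. The median was 2468.5 bases over all genes tested and 3442 bases over the protein-coding ones. Among protein-coding genes of 500 to 1000 bases, 1.08% were called higher in SCNT-Kdm4d and 0.619% in SCNT-Kdm3a. The shares were 0.0752% and 0.150% of those above 4000 bases. Of the 90 protein-coding genes under 500 bases, none was called, and their median log2 fold change was −0.26. The part of gene length and of mitochondrial reads in these results was not tested.

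The translation initiation factor gene Eif1 measured 434 and 674 CPM in SCNT-Kdm3a, 1394 and 1435 CPM in SCNT-Kdm4d and 646 and 886 CPM in SCNT control (adjusted p = 0.043). Cell cycle and nuclear genes were represented by the CDK inhibitor gene Cdkn2d (19.5 and 21.2 against 55.7 and 53.7 CPM) and the lamin gene Lmna (23.6 and 25.3 against 49.0 and 50.8 CPM). None of 27 p53 target and arrest genes was called. E330034G19Rik, the DEG among 41 oocyte maternal genes, measured 331 and 234 CPM in SCNT-Kdm3a, 672 and 740.0 CPM in SCNT-Kdm4d and 546 ± 57.3 CPM (SD, n = 4) in IVF. Of these 41 maternal genes, 10 were higher in SCNT-Kdm4d at an unadjusted p under 0.05 (5.48% of all genes tested) and none lower (4.55%). The summed level of that list was 19960 and 20292 CPM in SCNT-Kdm3a and 21952 and 21316 CPM in SCNT-Kdm4d, both above the 11657 and 14758 CPM of SCNT control. In IVF it was 21145 to 24209 CPM, a range that held both SCNT-Kdm4d libraries and lay above both SCNT-Kdm3a libraries. The zinc finger gene Zfp296 measured 35.3 and 43.0 CPM in SCNT-Kdm3a and 97.4 and 97.5 CPM in SCNT-Kdm4d, and with Zfp40 and Zfp352 it made up the 3 DEGs of 343 genes whose name is Zfp and a number, a list that leaves out Zfp36l1. Muscle phosphoglycerate mutase Pgam2, the cofactor recycling gene Pcbd1, the C-mannosyltransferase gene Dpy19l1 and the asparaginase gene Aspg were higher by 2.12, 2.28, 2.28 and 4.13 on the log2 scale, at 16.8 CPM or less in all 4 libraries.

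Lists of other gene groups held no DEG. None was called among 58 nucleolar genes, 84 ribosomal protein genes, 26 replication-dependent histone genes, 16 genes imprinted by maternal H3K27me3, 15 DNA methylation genes and 15 Prame and Oog genes. Their members with the lowest p were Utp3 (121 and 144 against 208 and 225 CPM), Rpl39l (3.67 and 2.31 against 9.76 and 12.6 CPM), Tle3 (31.3 and 17.7 against 12.3 and 14.7 CPM) and the maintenance methyltransferase gene Dnmt1 (54.8 and 50.4 against 73.7 and 78.4 CPM). For all 4 genes the groups did not overlap, as for 36.6% of all genes tested, and each had been chosen for its low p. The edgeR adjusted p was 0.127, 0.0969, 0.339 and 0.264. The histone genes had a median log2 fold change of 0.62, with 69.2% above 0 (48.9% of all genes tested). At an unadjusted p under 0.05, 2 were higher in SCNT-Kdm4d (5.48% of all genes tested) and none lower (4.55%). The histone gene with the lowest p, Hist3h2a, had no read in SCNT-Kdm3a and 0.0807 and 0.491 CPM in SCNT-Kdm4d.

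Some genes stood far below the control in SCNT-Kdm3a and closer to it in SCNT-Kdm4d. The protease inhibitor gene Cstb measured 3.61 and 5.05 CPM in SCNT-Kdm3a, 22.7 and 31.8 CPM in SCNT-Kdm4d, 38.5 and 39.3 CPM in SCNT control and 101 ± 11.6 CPM (SD, n = 4) in IVF. The log2 fold change was 2.67 ± 0.428 (adjusted p = 0.00484). Sfn, which encodes 14-3-3 sigma, measured 1.1 and 2.39 CPM against 15 and 8.48 CPM, with 10.9 and 9.41 CPM in SCNT control. The electron carrier gene Cyb5a measured 5.6 and 9.84 against 59.2 and 24.8 CPM, with 64.1 and 44.8 CPM in SCNT control. The protease inhibitor gene Serpine2, the single DEG of 33 cumulus and granulosa cell genes, measured 4.4 and 3.76 against 25.8 and 11.4 CPM, with 27.4 and 23.9 CPM in SCNT control. In each of these 4 genes the SCNT-Kdm3a libraries lay below all control and IVF libraries. Low reads set a limit for 5 genes. The MHC class I gene H2-K1 had 2 reads in both SCNT-Kdm3a libraries and 95 in both SCNT-Kdm4d libraries, a ratio of 54.9 after normalization (95% interval 14.8 to 460 from counting error alone). The ratio was 49.7 (8.45 to 2006) for the sulfiredoxin gene Srxn1 and 18.9 (6.09 to 94.6) for the mRNA decay factor gene Zfp36l1. Ccdc180 and Gm17969 had no read in SCNT-Kdm3a, and at a floor of 3 reads per library they were at least 10.0-fold and 11.7-fold higher in SCNT-Kdm4d.

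**Figure D3:**
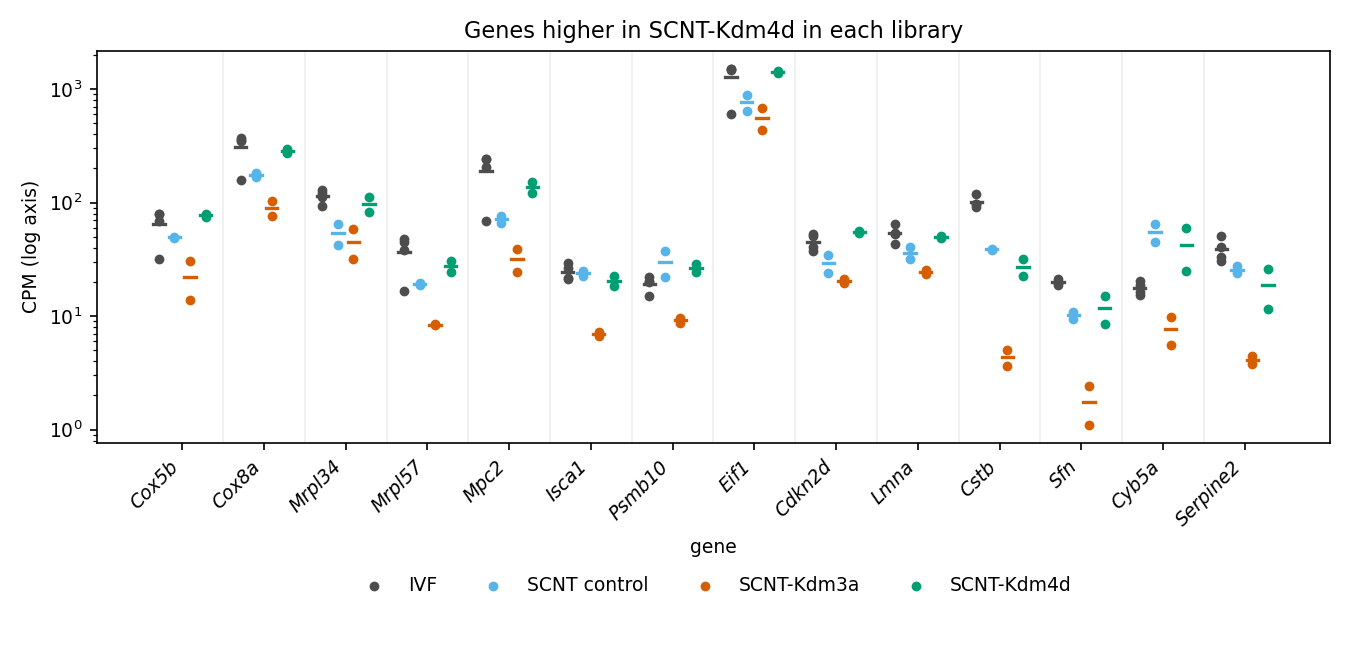
Dots give the CPM of 14 genes higher in SCNT-Kdm4d (x axis) in each library on a log axis, coloured by group, and lines give the group means. In SCNT-Kdm3a, Cstb lay at 3.61 and 5.05 CPM, below its control (38.5 and 39.3 CPM) and IVF values, and Cox8a at 76.0 and 103 CPM, below 167 and 182 CPM in SCNT control.

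The same genes were then read in the groups outside the comparison. The values against SCNT control and IVF share the injected libraries with the contrast that chose the genes, and they describe where each group stood. Of the 36 genes higher in SCNT-Kdm4d, 19 were called lower in SCNT-Kdm3a than in SCNT control (1.78% of all genes) and 3 higher in SCNT-Kdm4d than in SCNT control (2.11%). Against IVF, 30 of the 36 were called lower in SCNT-Kdm3a (6.21% of all genes) and 6 in SCNT-Kdm4d (4.46%), and 3 were called higher in SCNT-Kdm4d (4.85%). Their mean level was closer to IVF in SCNT-Kdm4d for 33 of 36 (91.7%), against 53.6% of all genes. Of the 46 genes higher in SCNT-Kdm3a, 17 were called higher in SCNT-Kdm3a than in SCNT control (2.38% of all genes) and 14 lower in SCNT-Kdm4d than in SCNT control (1.04%). Against IVF, 21 of the 46 were called higher in SCNT-Kdm3a (6.59%) and 18 lower in SCNT-Kdm4d (4.46%), and SCNT-Kdm4d was closer to IVF for 25 of 46 (54.3%).

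The latrunculin A groups share no library with the injected groups, but they share the 2 CC_cont libraries among themselves. With TSA and UNC0638 against CC_cont, 23 of the 46 genes higher in SCNT-Kdm3a were called higher (3.68% of all genes), 39 were above 0 (44.9% of all genes), and their median log2 fold change was 1.31, against −0.08 over all genes. Called lower there were 3 of the 46 (2.54% of all genes) and 3 of the 36 genes higher in SCNT-Kdm4d, of which none was called higher and whose median was −0.06. With RK-701 alone, 37 of the 46 were above 0 (48.2% of all genes), 6 were called higher (1.73%), and the median was 0.40. Of the 36 genes higher in SCNT-Kdm4d, 11 were above 0 with RK-701, 1 was called higher and 5 were called lower (1.61%). With A366 alone, 37 of the 46 were above 0 (46.4% of all genes), and 2 were called higher (0.0814%) and none lower (0.0388%). With TSA and RK-701, 22 of the 46 were above 0 (43.8% of all genes), 5 were called higher (3.68%) and 3 lower (2.51%). With TSA and A366, 21 were above 0 (43.5% of all genes), 4 were called higher (3.06%) and 4 lower (2.92%). TSA alone left 23 of the 46 above 0 (46.4% of all genes), with none called higher (0.159%) or lower (0.159%). Of the 36 genes higher in SCNT-Kdm4d, 6 were called lower and none higher with TSA and A366, 2 lower and 1 higher with TSA and RK-701, 2 lower and none higher with TSA, and none with A366. Tcstv3 had a log2 fold change of 1.75 with TSA and UNC0638 and of −0.13 with RK-701, and Gm12794 had 2.87 and 2.02.

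**Figure D4:**
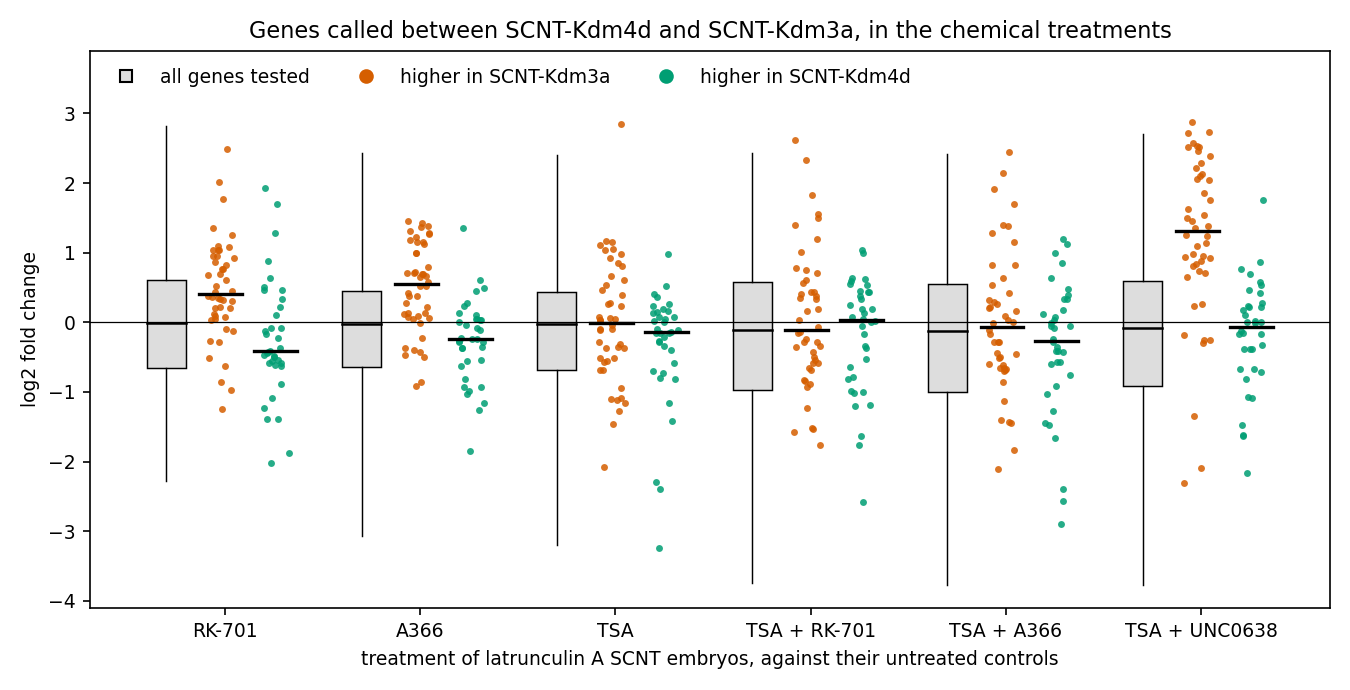
Log2 fold changes (y axis) of 6 treatments of latrunculin A SCNT embryos against CC_cont (x axis), for the 46 genes higher in SCNT-Kdm3a, the 36 genes higher in SCNT-Kdm4d, and as boxes with the 5th, 25th, 50th, 75th and 95th percentiles for all genes tested. Bars mark medians, and that of the 46 genes was 1.31 with TSA and UNC0638 and 0.40 with RK-701.

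Reads on transposable elements were a smaller part of the SCNT-Kdm4d libraries. Of 741 families with their copies summed and scaled by the gene libraries, 620 had a log2 fold change below 0, and the median was −0.37. The groups did not overlap for 407 (54.9%). With edgeR, 27 families (3.64%) had an adjusted p under 0.05 and 6 (0.81%) of these changed by more than 2-fold, all higher in SCNT-Kdm3a, and none was higher in SCNT-Kdm4d. This rested on the scaling and on single libraries. With normalization within the transposable element reads, the median was −0.03 and no family had an adjusted p under 0.05. Without SCNT-Kdm3a replicate 1, the library with the highest share of element reads, the median was −0.15 and no family was called. No family was called without either of the SCNT-Kdm4d libraries, and 157 had an adjusted p under 0.05 without SCNT-Kdm3a replicate 2.

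The 6 families past both limits were LTR and L1 elements. ERVB7_1-LTR_MM, an ERVK LTR, had the lowest adjusted p (0.0277), with 110 and 65.1 CPM in SCNT-Kdm3a, 41.2 and 45.2 CPM in SCNT-Kdm4d and 72.9 and 71.4 CPM in SCNT control. L1VL1 measured 86.7 and 49.5 against 33.9 and 30.1 CPM, with 83.4 and 84.0 CPM in SCNT control. RLTR9A3B, RMER16C, RLTR12G and MLT1D, with log2 fold changes from −2.14 to −1.27, were at or below 15.8 CPM in all 4 libraries. Among the 27, MT2C_Mm measured 1094 and 879 CPM in SCNT-Kdm3a, 559.8 and 701.2 CPM in SCNT-Kdm4d and 525 and 578 CPM in SCNT control. MT2B1, MT2B and MT2A, related LTRs of the ERVL class, passed the adjusted p as well, so that 4 of the 5 families of this group did. Summed over the group, SCNT-Kdm3a held 2844 and 2312 CPM, SCNT-Kdm4d 1526 and 1863 CPM, SCNT control 1554 and 1669 CPM, and IVF 1456 to 1710 CPM, so that both SCNT-Kdm3a libraries and SCNT-Kdm4d replicate 2 lay above the IVF range.

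MERVL was not called. MERVL-int measured 7775 and 6382 CPM in SCNT-Kdm3a and 5434 and 5737 CPM in SCNT-Kdm4d, against 4071 and 4562 CPM in SCNT control and 7789 to 8378 CPM in IVF. The groups did not overlap, and the adjusted p was 0.234. MT2_Mm measured 5001 and 3490 against 2903 and 3010 CPM (adjusted p = 0.174). ORR1 families, MaLR elements that are also transcribed at this stage, summed to 16855 and 16244 CPM in SCNT-Kdm3a, 11594 and 12376 CPM in SCNT-Kdm4d, 10740.3 and 9058 CPM in SCNT control and 15730 to 16799 CPM in IVF. In these sums SCNT-Kdm3a lay at or near the IVF range and SCNT-Kdm4d nearer to the control. The medians over the 28 ORR1 families tested did not show this pattern. In SCNT-Kdm3a the median log2 fold change was 0.28 against IVF and 0.09 against SCNT control. In SCNT-Kdm4d it was −0.13 against IVF and −0.20 against SCNT control. IAP families summed to 1214 and 995 against 846 and 793 CPM. Young L1Md families were split by 1 library, with 8399 and 5117 CPM in SCNT-Kdm3a and 5555 and 5284 CPM in SCNT-Kdm4d, and the groups overlapped. The MT MaLR group, transcripts of which are abundant in oocytes, had the higher mean sum in SCNT-Kdm4d, but the groups overlapped, with 14632 and 13305 CPM in SCNT-Kdm3a and 18392 and 14348 CPM in SCNT-Kdm4d. Of its 15 families, however, 11 had a log2 fold change below 0 and 4 above, with a median of −0.17. With 2 libraries against 2, an exact permutation test of any of these sums cannot give a two-sided p below 0.333.

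**Figure D5:**
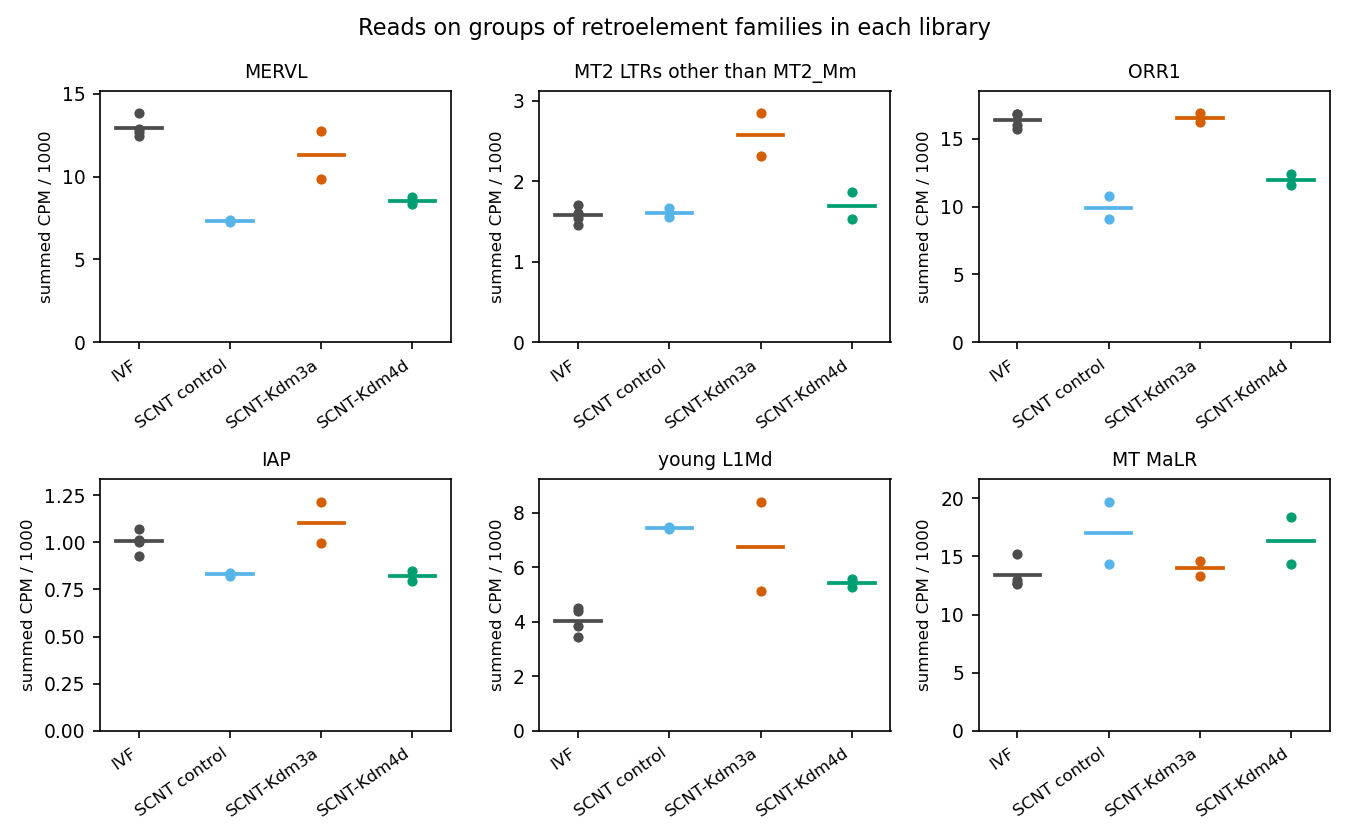
Summed CPM divided by 1000 (y axis, from 0) of 6 groups of retroelement families in each library, with lines at the group means. SCNT-Kdm3a lay above SCNT-Kdm4d for MERVL, MT2 LTRs, ORR1 and IAP, the libraries of both groups overlapped for L1Md, and MT MaLR families were at 13305 and 14632 CPM against 14348 and 18392 CPM.

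At the level of single copies, 0 of 49031 were called with edgeR (0%), where 4319 (8.81%) had an unadjusted p under 0.05, 2976 of them higher in SCNT-Kdm3a and 1343 in SCNT-Kdm4d. DESeq2 called 265, with 212 higher in SCNT-Kdm3a. Of 1176 MT2_Mm copies 913 (77.6%) were below 0, and of 854 MERVL-int copies 660 (77.3%), against 58.8% of all copies. This was not particular to MERVL, with 79.7% for MT2C_Mm, 71.9% for ORR1A2, 70.9% for MT2B1 and 69.6% for IAPEz-int. Of 13626 copies more than 5 kb from any gene, 8561 (62.8%) were below 0. An ORR1A0 copy on chromosome 7 from 20606212 to 20606557 had 1166 and 89 reads in SCNT-Kdm3a and none in SCNT-Kdm4d, and a B2_Mm1t copy on chromosome 5 from 109542519 to 109542712 had none in SCNT-Kdm3a and 131 and 133 reads in SCNT-Kdm4d. Neither passed the test.

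Genes of the X chromosome were tested in a fit that included them, since SCNT embryos were all female and IVF embryos of both sexes. Of 1010 X-linked genes, 7 (0.693%) were called between the injected groups, against 0.326% of the autosomal genes in the main fit. The mitophagy receptor gene Fundc1 measured 421 and 266 CPM in SCNT-Kdm3a and 117 and 144 CPM in SCNT-Kdm4d (adjusted p = 0.00469), against 160.0 and 194 CPM in SCNT control. The translation factor gene Eif1ax measured 34.5 and 45.4 against 98.9 and 95.9 CPM, and the ubiquitin-conjugating enzyme gene Ube2a 45.1 and 65.9 against 122 and 116 CPM, both with SCNT control near SCNT-Kdm4d (117 and 104 CPM for Eif1ax, 99.7 and 113 CPM for Ube2a). Gm5380 and Gm14742 were also higher in SCNT-Kdm3a, and AU022751 and Ccdc160 in SCNT-Kdm4d.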

How the data were processed

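RNA was sequenced from pools of two-cell embryos with SMART-Seq HT libraries. According to the methods, the authors used Trimmomatic for trimming and STAR for alignment to mm10, retained unique alignments and counted them with featureCounts. Per the file headers, version 1.6.2 counted pairs with both ends aligned, with no strand option and no option for reads that overlap several features, so that its defaults applied (no use of strand, such pairs not counted). The deposited tables hold raw counts of 55375 genes and 1755056 transposable element copies (1092 families). Columns were matched to groups by the sample labels.

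The counts were analysed with edgeR 4.0.16 (quasi-likelihood test, TMM factors of all genes, 1 model over 25 libraries with 11 groups, Benjamini-Hochberg adjustment), so that the spread came from all groups. Genes needed a mean of at least 1 read, and families and copies one of at least 5. CPM were computed with the TMM-scaled gene library sizes, also for elements. A call needed an adjusted p under 0.05 and a change over 2-fold. Sex chromosomes were left out, as the authors did. The SE is the log2 fold change divided by the square root of the F statistic. DESeq2 1.42.0 was an alternative, along with other filters, normalizations and sets of libraries. The gene and family fits were also run on simulated counts with a smaller spread than these data. Single copies were not simulated, so those runs do not measure the error rates here. Intervals and floors cover counting error only. The genome was not used here, so no element sequence is shown.

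The genes named are both injected genes, the 15 DEGs per direction with the largest change whose higher group had 10 reads or more in both libraries, list members that were DEGs or had the lowest p, Zscan4, Obox and Eif1a genes, the called families and the largest family of each group, and some DEGs with known roles that were chosen after their values were seen. The members and lists were chosen with earlier results of these data known. The list of 879 RRGs was read from the study's supplement, and 3 lists were added after values were seen.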

Additional observations from a re-analysis of the deposited data

Results flagged for a closer look

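Among the 4 IVF libraries, which serve as the reference for the values above, 5 of the 49 quantities checked had 1 library far from the other 3, by its gap to the nearest library as a share of the whole range (chance flags about 1 in 20). Cox8a stood at 156 CPM in IVF replicate 2 against 348 to 368 CPM (0.904 of the range), and Eif1 at 604 CPM in the same library against 1479 to 1514 CPM (0.961). Both genes were DEGs between the injected groups, and their IVF mean lies below the other 3 libraries. The summed MT MaLR families were high in IVF replicate 2, at 15207 CPM against 12643 to 12946 CPM (0.882). The B1 families were low in IVF replicate 1, at 12220 CPM against 13543 to 13765 CPM (0.856). The summed cumulus and granulosa list was low in IVF replicate 3, at 216 CPM against 251 to 256 CPM (0.868). None of these libraries entered the comparison of the injected groups other than through the shared normalization and estimate of the spread.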

How the results depend on the processing

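Under the 13 alternatives for genes, no DEG changed direction, but the number called moved from 84 to 325 with DESeq2, 336 without a filter on low counts, 163 with the 4 compared libraries alone and 139 with 10 libraries. It was 92 to 97 with other factors, another filter or the X chromosome. Leaving out 1 library gave 4 to 124. The replicate block gave 51, of which 49 were among the 84. The numbers do not pair the samples: the deviations of same-numbered libraries correlated at 0.00557, and the labels give no shared day or animal. For families past both limits (6), the count was 0 with normalization within the element table, 0 with 4 libraries, 0 with the replicate block, 12 with DESeq2, 16 with copies over 5 kb from genes, 14 without a filter and 27 without a limit on the fold change, an alternative chosen after seeing the data. It was 0 to 44 when 1 library was left out. For copies (0) the count was 265 with DESeq2 and 0 to 4 when 1 library was left out. The median of the two-cell list ranged from −0.64 to −0.41 when 1 library was left out. The share of genes higher in SCNT-Kdm3a that lay near ERVL elements was 14.4% to 26.9% with all libraries of both groups and 20.3% to 100% when 1 library was left out, where as few as 1 gene remained, and the share above 0 with TSA and UNC0638 was 66.7% to 100%. The cause of these differences was not tested.

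With 2 pools a group, single libraries weigh heavily, and 44 DEGs passed in every alternative that retained all 4 libraries. Unique alignment and unstranded counting limit the multicopy genes and elements.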
